A study of Mus musculus with 24 samples.

Results

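The renin-angiotensin system genes measured here are the 9 genes Ren1, Agt, Ace, Agtr1a, Agtr1b, Agtr2, Atp6ap2, Enpep and Mme. They were taken from the deposited count table of mouse whole kidney by gene symbol, and each symbol matched a single row, so they are 9 of 54532 genes. Renin, the protease encoded by Ren1, is released by juxtaglomerular cells of the kidney arterioles and cleaves angiotensinogen, encoded by Agt, to angiotensin I. Angiotensin-converting enzyme, encoded by Ace, turns angiotensin I into angiotensin II, which acts on type 1 receptors (Agtr1a and Agtr1b in rodents) and type 2 receptors (Agtr2). Aminopeptidase A (Enpep) and neprilysin (Mme) break angiotensin peptides down, and the product of Atp6ap2 is known both as the prorenin receptor and as an accessory subunit of the vacuolar proton pump. In the kidney the system constricts vessels and promotes sodium retention, and angiotensinogen, ACE, aminopeptidase A and neprilysin are all known from the proximal tubule, among other sites.

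The 24 libraries came from 24 C57BL/6 mice killed at 18 days of age, and every mouse carried RC, a missense allele of the polycystic kidney disease gene Pkd1. The 3 noncystic groups, RC/+, RC/+ D18 and RC/+ D53, had 3 mice each and a floxed but intact second Pkd1 allele. The 3 cystic groups, RC/-, RC/- D18 and RC/- D53, had 5 mice each, and their second allele had been inactivated by KspCre, which is active in renal tubule and collecting duct epithelium. Because only cystic mice carried Cre, Cre and the cystic genotype cannot be told apart. In D18 and D53 mice the binding motif for the microRNA miR-17 had been deleted from the Pkd1 3′-UTR of the RC allele. Each edited line descended from 1 founder (founder 3 for D18, founder 2 for D53), so a line effect and a founder effect cannot be told apart. In the paper's breeding, each founder gave unedited as well as edited mice. The founder of the RC/+ and RC/- mice used here is not given. RC/- progeny of founder 2 died earlier in the paper than those of founder 3. A founder difference and the deletion therefore cannot be told apart where edited and unedited groups are compared. Replicates are named here by the number in their label, from 4 to 27.

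The deleted motif is shown to place the design, with the seed of the microRNA (bases 2 to 8) and its match in the target in capitals. The site lies at chr17:24595717-24595739 on the plus strand of GRCm38, in the 3′-UTR of Pkd1, and the match starts at base 193 of a 969-base 3′-UTR. The mature microRNA is the RefSeq entry on GRCm38.p6, encoded at chr14:115043684-115043706 on the plus strand.
mmu-miR-17-5p: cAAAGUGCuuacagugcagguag
Pkd1 site: acatatggggcttctGCACTTTa
The same 7-base match, GCACTTT, was absent from the longest annotated 3′-UTR of each of the 9 renin-angiotensin genes, which were 187 to 5698 bases long. It was present in 2474 of 21045 3′-UTRs, or 11.8%. This says only that these letters are not in those stretches.

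Depth was between 20379982 and 30837488 counts per library. Pkd1 itself averaged 50.7 to 61.7 CPM (the count of a gene scaled to the total of its library) over the 6 groups, and these counts do not separate its alleles. High skeletal muscle transcripts were shared by libraries 20 to 27 (the 5 libraries of RC/- D53, with numbers 20, 21 and 22 of RC/- D18). The summed level of 6 muscle genes was 147 to 194 CPM in RC/- D53, 7.10 to 180.2 CPM in RC/- D18 and 5.27 to 9.36 CPM in the other 4 groups. One further library stood apart in a way that bears on the receptors, RC/- replicate 16. Its counts of adrenal steroid genes were far above those of the other 23 libraries, with 16153 against 70 to 209 for Star, 7579 against 0 to 30 for Cyp11a1 and 4439 against 0 to 20 for Cyp11b1. Chga and Th, genes of adrenal medulla, had 2849 and 946 counts against at most 65 and 22 elsewhere. The summed level of 8 adrenal cortex genes was 1941 CPM there and 3.36 to 13.4 CPM in the others, and none of the 12 adrenal genes listed was at 0 in it. In this library 29 genes with at least 50 counts lay 10 times or more above every other library, whereas RC/- D53 replicate 27 had 2 such genes and the remaining 22 libraries had 0. These adrenal genes were listed after their values had been seen, and results are given with and without this library where it matters.

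To set the 9 genes beside each other, counts were divided by exon length and by the library total (RPKM, the CPM per kilobase of exon). In RC/+ kidneys Ren1 was the highest, with 111 ± 17.1 RPKM (SD, n = 3). Agt followed with 69.9 ± 3.73, Ace with 65.1 ± 4.91 and Atp6ap2 with 64.1 ± 1.25 RPKM (SD, n = 3 each). The ranges of Agt and Ace overlapped, as did those of Ace and Atp6ap2, and the order of these 3 genes changed when the longest transcript was used as the length. Enpep had 46.5 ± 0.753, Mme 32.8 ± 2.20 and Agtr1a 21.1 ± 5.24 RPKM (SD, n = 3 each). The ranges of these 3 neighbours did not overlap. The other 2 receptors were near the limit of detection. Agtr2 had 0.567 ± 0.135 RPKM, from 31 to 54 counts per library, and Agtr1b had 0.128 ± 0.0643 RPKM (SD, n = 3 each), from 3 to 10 counts. Thus 7 of 9 genes exceeded 1 RPKM in noncystic kidneys.

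**Figure D1:**
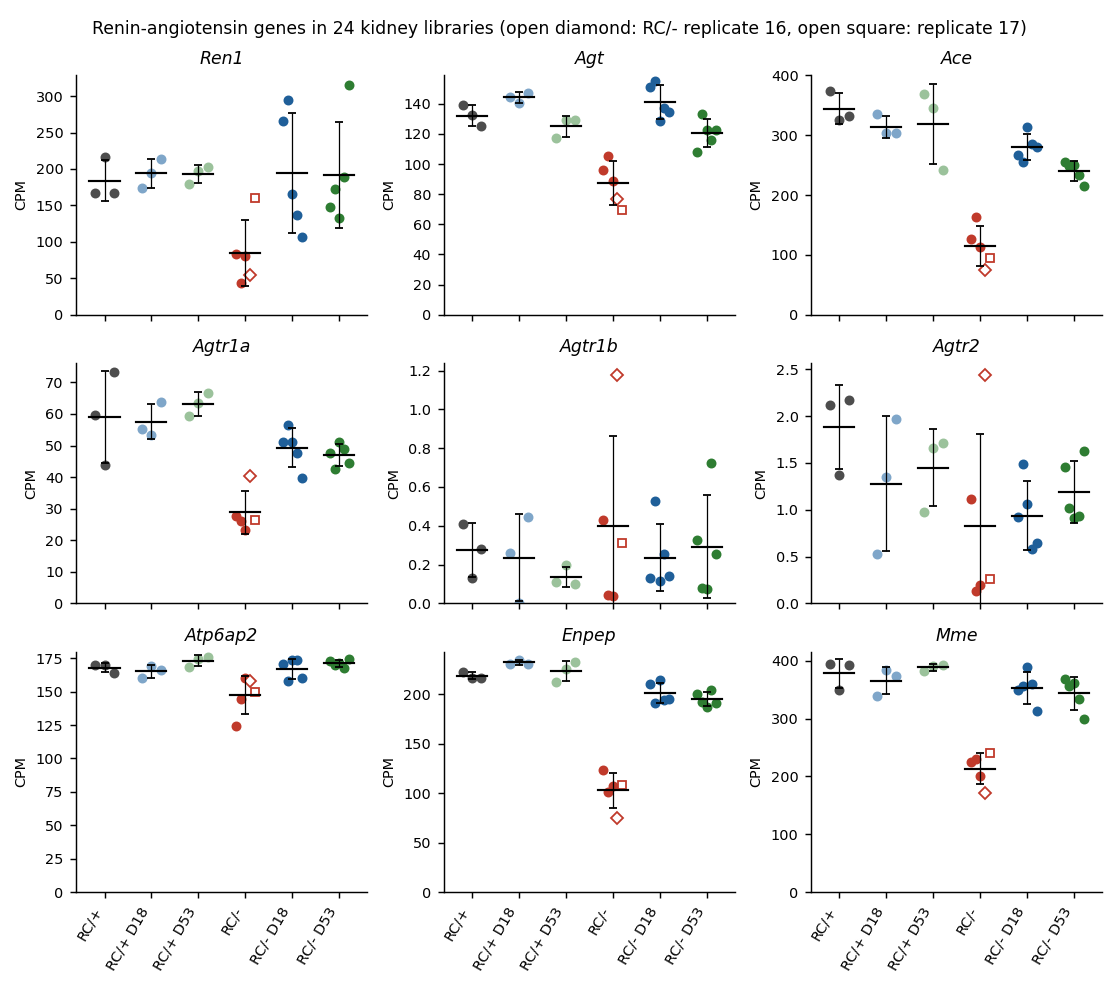
Level in CPM (vertical axes, linear from 0) of the 9 renin-angiotensin genes in each of 24 kidney libraries, by group. Points are libraries, horizontal bars are means and whiskers are SD (cut at 0 where they would pass below it). The open diamond is RC/- replicate 16 and the open square RC/- replicate 17. For Ace, Enpep and Mme the 5 RC/- libraries lie below every other library, from 74.6 to 164 CPM for Ace, while Agtr1b and Agtr2 reach their highest value of all 24 in replicate 16.

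The first comparison asked how the system differed in cystic kidneys with the motif intact. Transcripts of 8 of the 9 genes were lower in RC/- than in RC/+ kidneys, and Agtr1b was the exception. The fall was steepest in Agtr2 and Ace and smallest in Atp6ap2. All 9 passed the expression limit of a mean log2 CPM of -3 and were tested by limma-trend, with Benjamini-Hochberg adjustment over 22570 genes and an adjusted p below 0.05 as the threshold. Over all genes 37.6% passed in this comparison and 12.2% passed as lower. The median log2 fold change of the 9 was -1.03, against 0.14 over all genes tested. In 7 of the 9 genes every RC/- library lay below every RC/+ library, which held for 11.6% of all genes.

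Ren1 (ENSMUSG00000070645, GRCm38 chr1:133350510-133360325, plus strand) had 167, 216 and 167 CPM in RC/+ kidneys. The 5 RC/- libraries had 83.7, 43.6, 80.4, 54.0 and 159.8 CPM. The groups did not overlap, but replicate 17 nearly reached the lowest control. On the log2 scale Ren1 changed by -1.26 ± 0.33 (SE), or 2.40-fold lower, with an adjusted p of 0.00348 by limma-trend. Without replicate 17 it was -1.53 (adjusted p = 0.000251 by limma-trend). The coefficient of variation of Ren1 was 54.0% in RC/- kidneys and 6.40% to 15.4% in the 3 noncystic groups.

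Agt (ENSMUSG00000031980, chr8:124556534-124569706, minus strand), the substrate of renin, had 139, 133 and 125 CPM in RC/+ and 95.8, 106, 88.9, 77.0 and 69.6 CPM in RC/- kidneys. All 5 cystic libraries were below the controls. Its log2 fold change was -0.61 ± 0.10 (SE) with an adjusted p of 2.62e-05 by limma-trend, the second smallest fall among the 8.

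Ace (ENSMUSG00000020681, chr11:105967945-105989964, plus strand) had 374, 326 and 332 CPM in RC/+ kidneys. In RC/- kidneys it had 126, 164, 113, 74.6 and 95.1 CPM. Even the highest cystic library was well below the lowest control. This was a log2 change of -1.63 ± 0.16 (SE), or 3.11-fold lower, with an adjusted p of 2.09e-08 by limma-trend. Since 5.58% of its exon bases overlap the antisense gene Gm11651 and the counting strand is not stated, reads in that stretch cannot be assigned to either gene.

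The angiotensin-degrading peptidases fell as well. Enpep (ENSMUSG00000028024, chr3:129269175-129332720, minus strand) had 223, 217 and 217 CPM in RC/+ and 123, 101, 107, 74.4 and 108 CPM in RC/- kidneys. Mme (ENSMUSG00000027820, chr3:63241537-63386030, plus strand) had 394, 349 and 392 CPM in RC/+ and 225, 229.9, 201, 172 and 240.2 CPM in RC/- kidneys. In both genes the 2 groups were far apart. The log2 fold change was -1.11 ± 0.10 (SE) for Enpep and -0.83 ± 0.09 (SE) for Mme, with adjusted p of 3.59e-09 and 1.35e-07 by limma-trend.

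Among the receptors Agtr1a (ENSMUSG00000049115, chr13:30336441-30382867, plus strand), the main type 1 receptor of mouse kidney, had 59.6, 44.0 and 73.1 CPM in RC/+ kidneys. RC/- kidneys had 27.7, 26.1, 23.2, 40.4 and 26.5 CPM. The cystic libraries lay below the controls, with the library of highest adrenal counts, replicate 16, closest to them. Agtr1a changed by a log2 value of -1.03 ± 0.15 (SE; adjusted p = 5.44e-06 by limma-trend), and it was -1.15 without replicate 16.

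Agtr2 (ENSMUSG00000068122, chrX:21484544-21489164, plus strand), the type 2 receptor that is most abundant in fetal tissue, had 52, 31 and 54 counts in RC/+ libraries. In RC/- libraries it had 26, 3, 5, 58 and 6 counts. Replicate 16 gave the 58 counts, or 2.43 CPM, above every other library of the series, so the groups overlapped. The log2 fold change was -1.76 ± 0.57 (SE; adjusted p = 0.0164 by limma-trend) with that library and -2.30 ± 0.47 (SE; adjusted p = 0.00047 by limma-trend) without it. The call was lost without RC/+ replicate 4 (adjusted p = 0.0585 by limma-trend), without RC/+ replicate 6 (adjusted p = 0.0613) and by edgeR and DESeq2 (adjusted p = 0.0813 and 0.0567).

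Agtr1b (ENSMUSG00000054988, chr3:20314473-20367177, minus strand), the second rodent type 1 receptor, had 10, 3 and 7 counts in RC/+ and 10, 1, 1, 28 and 7 counts in RC/- libraries. The 28 counts came again from replicate 16 and were the highest of the 24 libraries. The groups overlapped and no difference was detectable at this depth, the log2 value being -0.04 ± 0.69 (SE), with an adjusted p of 0.972 by limma-trend. It was -0.53 ± 0.64 (SE; adjusted p = 0.568 by limma-trend) without replicate 16. The adrenal gland is a known site of Agtr1b and Agtr2 expression, and the part of the adrenal transcripts in these values was tested only by leaving the library out.

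A 30-base stretch of the transcripts of both type 1 receptors, where they differ most, is shown because low Agtr1b counts depend on telling them apart. Capitals mark the 10 differing bases.
Agtr1a, bases 1264 to 1293 of the transcript: caCTcaAgCCtGtcTacGaaaatgagCacG
Agtr1b, bases 1158 to 1187 of the transcript: caTGcaGgGTtAtcAacAaaaatgagTacT
Over 1145 aligned bases the transcripts were 89.8% identical, with 113 mismatches and no identical run longer than 66 bases. The gene counting mode of STAR takes uniquely mapped reads, so reads that fit both transcripts equally well would be counted for neither, and values of Agtr1b remain uncertain.

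**Figure D2:**
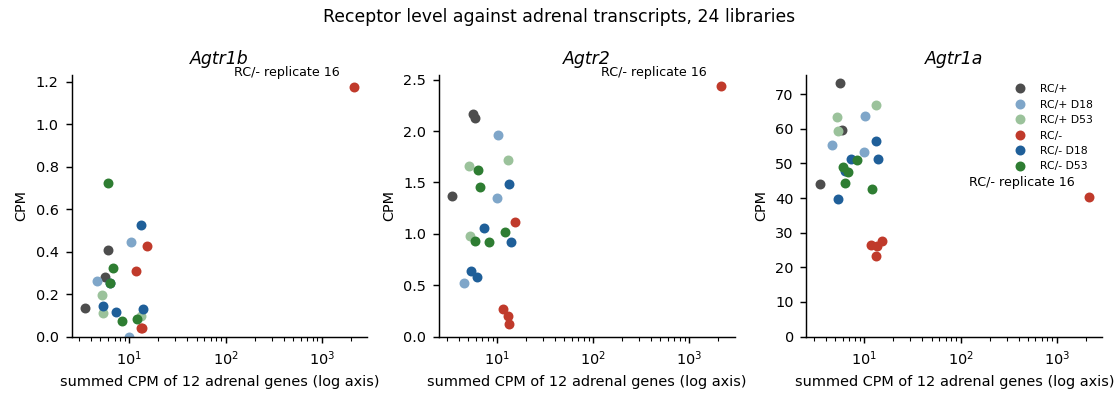
Level of Agtr1b, Agtr2 and Agtr1a (vertical axes, CPM, from 0) against the summed level of 12 adrenal genes (horizontal axis, CPM, log scale) in 24 libraries, with colours for the 6 groups. RC/- replicate 16 stands alone at the right and has the highest Agtr1b (1.18 CPM) and Agtr2 (2.43 CPM) of all libraries, and the highest Agtr1a of the 5 RC/- libraries (40.4 CPM).

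Atp6ap2 (ENSMUSG00000031007, chrX:12587801-12617049, plus strand) moved least. It had 169.9, 169.6 and 164 CPM in RC/+ and 124, 145, 161, 158 and 149.8 CPM in RC/- kidneys. The groups were close but did not overlap. Atp6ap2 thus changed by -0.19 ± 0.06 (SE, log2 scale; adjusted p = 0.0211 by limma-trend). Over 438 aligned bases its transcript was 98.4% identical to that of Gm36448, and the effect of this near copy on its counts was not tested. The call of Atp6ap2 was lost when some single libraries were left out. By limma-trend the adjusted p was 0.0687 without RC/+ replicate 4, 0.0679 without RC/+ replicate 5 and 0.0584 without RC/- replicate 13. It was kept with TMM factors, by edgeR and by DESeq2, and the log2 value ran from -0.33 to -0.13 over 20 settings.

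Markers of several cell types moved with these values, and their part in the results was not tested. The summed level of 12 proximal tubule markers was 10298 to 11186 CPM in RC/+ and 2549 to 5817 CPM in RC/- kidneys, and 12 of 12 fell, with a median log2 fold change of -1.31. Ace and Agtr2 fell by more than that median, by 0.33 and 0.46 on the log2 scale, and the other 7 members by less. The number that fell by more was 4 without RC/- replicate 16 and 1 without RC/- replicate 14. Of 6 podocyte markers 5 fell and 1 rose, and of 7 endothelial markers 4 fell. In contrast, 4 of 7 mesangial and vascular smooth muscle markers rose and 1 fell, 7 of 7 macrophage markers rose and 5 of 6 collecting duct markers rose. None of these markers was at 0 throughout. In whole kidney, fewer cells of a type and less RNA per cell cannot be told apart.

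The second question was what the motif deletion changed in cystic kidneys. In RC/- D18 against RC/- kidneys 7 of 9 renin-angiotensin genes were higher, and 14.3% of all genes tested passed as higher (41.2% in either direction). The same 7 genes were higher in RC/- D53 against RC/- kidneys, where 11.3% of all genes passed as higher (30.2% in either direction). They were Ren1, Agt, Ace, Agtr1a, Atp6ap2, Enpep and Mme. Every edited library exceeded every RC/- library in 4 of the 9 genes in D18, beside 9.01% of all genes, and in 6 of the 9 in D53, beside 6.98%. These comparisons and the cystic comparison above all use the 5 RC/- libraries, so their values stand side by side and are not independent. The median log2 fold change of the 9 genes was 0.76 in D18 and 0.73 in D53, against -0.10 and -0.08 over all genes.

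**Figure D3:**
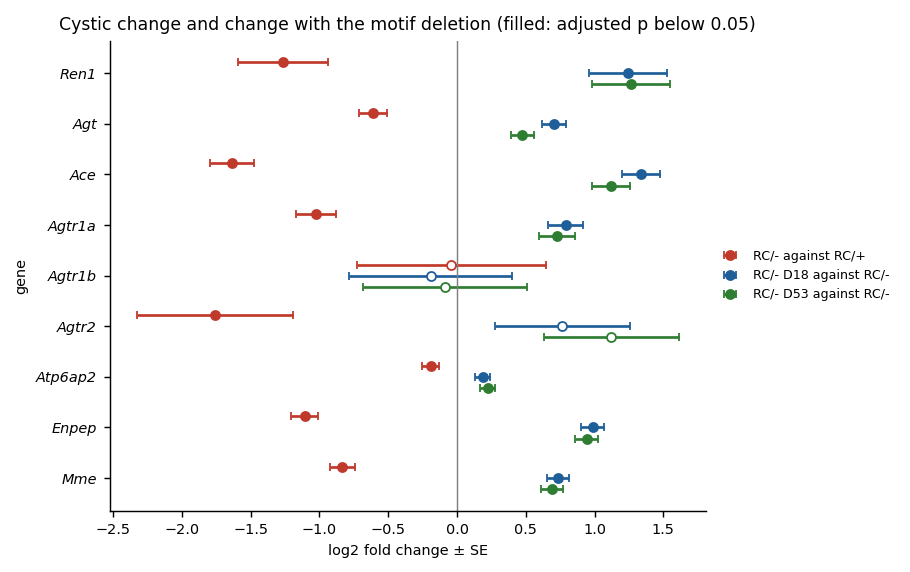
Log2 fold change (horizontal axis) of each of the 9 genes in RC/- against RC/+, RC/- D18 against RC/- and RC/- D53 against RC/- kidneys. Whiskers are standard errors from the fit and filled points passed an adjusted p below 0.05. Ace has the largest change among the abundant genes in the cystic comparison (-1.63), and Agtr1b lies within its standard error of 0 in all 3 comparisons.

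Ren1 had 266, 295, 166, 136 and 107 CPM in RC/- D18 and 148, 172, 132, 189 and 316 CPM in RC/- D53 kidneys. Both groups overlapped RC/- through its replicate 17, and each held libraries above the RC/+ range of 167 to 216 CPM (replicates 18, 19 and 27). The log2 fold change was 1.24 ± 0.28 (SE; adjusted p = 0.000979) in D18 and 1.26 ± 0.28 (SE; adjusted p = 0.00135) in D53, by limma-trend. The group means reached 106% and 104% of the RC/+ mean. The spread within edited cystic groups was wide, with a coefficient of variation of 42.4% in RC/- D18 and 38.0% in RC/- D53. In RC/- D18, replicates 18 and 19 had 266 and 295 CPM, and replicates 20 to 22, with high muscle transcripts, had 107 to 166 CPM. The RC/- D53 libraries, also high in muscle transcripts, had 132 to 316 CPM. The part of that split in the Ren1 values was not tested.

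Ace rose to 268, 255, 314, 285 and 281 CPM in RC/- D18 and to 255, 248, 249.6, 233 and 215 CPM in RC/- D53 kidneys. Both groups lay above all RC/- libraries. On the log2 scale Ace rose by 1.34 ± 0.14 (SE; adjusted p = 4.26e-08) and 1.12 ± 0.14 (SE; adjusted p = 1.44e-06) by limma-trend. Of the 7 genes, Ace stayed furthest below RC/+, at 81.6% of its mean in D18 and 69.9% in D53.

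Agt had 151, 155, 129, 137 and 135 CPM in RC/- D18, and 108, 133, 123, 116 and 123 CPM in RC/- D53 kidneys. Every edited library exceeded every RC/- library. The log2 fold change of Agt was 0.71 ± 0.09 (SE) in D18 and 0.48 ± 0.09 (SE) in D53, with adjusted p of 4.51e-07 and 0.000148 by limma-trend. The direct comparison of RC/- D53 with RC/- D18 gave -0.23 for Agt, with an adjusted p above the threshold.

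Enpep had 187 to 214 CPM and Mme 299 to 389 CPM over the 10 edited cystic libraries, all above the RC/- libraries. The log2 fold change of Enpep was 0.99 ± 0.08 (SE) in D18 and 0.94 ± 0.08 (SE) in D53, and that of Mme was 0.73 ± 0.08 and 0.69 ± 0.08 (SE). The adjusted p values by limma-trend were between 2.32e-09 and 5.86e-07.

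Agtr1a had 51.3, 56.4, 51.2, 47.8 and 39.8 CPM in RC/- D18 kidneys, the last of which lay just under RC/- replicate 16. In RC/- D53 kidneys it had 47.6, 42.5, 51.0, 49.0 and 44.5 CPM, all above RC/-. On the log2 scale Agtr1a rose by 0.79 ± 0.13 (SE; adjusted p = 2.11e-05) and 0.73 ± 0.13 (SE; adjusted p = 0.00011) by limma-trend. Without replicate 16 it was 0.92 and 0.86.

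The Agtr2 call depended on single RC/- libraries, replicate 16 with its adrenal transcripts in both lines and also replicate 13 in D53. The counts were 21, 31, 27, 16 and 18 in RC/- D18 and 45, 25, 25, 27 and 45 in RC/- D53 libraries, between the highest and lowest of RC/-. With all libraries the log2 fold change was 0.76 ± 0.49 (SE; adjusted p = 0.228) in D18 and 1.12 ± 0.49 (SE; adjusted p = 0.0904) in D53, by limma-trend. Without RC/- replicate 16 it was 1.30 ± 0.41 (SE; adjusted p = 0.0151) and 1.66 ± 0.41 (SE; adjusted p = 0.00403) by limma-trend, and 8 of 9 genes passed in each line. In D53 it also passed without RC/- replicate 13, at 1.39 (adjusted p = 0.0417 by limma-trend). Agtr1b had 3, 11, 3, 7 and 4 counts in RC/- D18 and 10, 2, 2, 21 and 7 in RC/- D53 libraries, and the log2 fold change was -0.19 ± 0.59 and -0.09 ± 0.59 (SE).

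Atp6ap2 rose slightly, from 124 to 161 CPM over RC/- to 158 to 174 CPM over RC/- D18 and 168 to 174 CPM over RC/- D53 libraries. On the log2 scale the rise was 0.19 ± 0.06 (SE; adjusted p = 0.00979) in D18 and 0.22 ± 0.06 (SE; adjusted p = 0.00375) in D53, by limma-trend. With libraries 20 to 27 as a covariate the adjusted p was 0.124 and 0.316 by limma-trend, while the log2 values were 0.16 and 0.18. The other 6 genes kept their calls under that covariate in both lines. All 5 RC/- D53 libraries lie within the covariate. Its effect could be estimated only from RC/- D18, replicates 18 and 19 against 20, 21 and 22, and was carried over to D53. This limit holds for every D53 value given with that covariate, here and below.

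Cell type markers moved in the edited cystic kidneys too. The proximal tubule sum was 9573 to 13354 CPM in RC/- D18 and 7513 to 9605 CPM in RC/- D53 kidneys, with 12 of 12 markers higher than in RC/- in each line. The median log2 fold change of these markers was 1.44 in D18 and 1.04 in D53, their part in the change of the 9 genes was not tested, and 7 of 7 macrophage markers fell in each line. Of 7 endothelial markers 5 rose in D18 and 3 in D53, and of 6 collecting duct markers 5 fell in D18 and 3 in D53.

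The third comparison asked what difference remained in an edited line when its own noncystic group was the control. None of the 9 genes passed in RC/- D18 against RC/+ D18 by limma-trend, where 0.266% of all genes passed, and edgeR and DESeq2 gave 0. At an unadjusted p below 0.05 there was 1, Enpep, with a log2 fold change of -0.21 ± 0.10 (SE). Its groups did not overlap, being lower in RC/- D18, as for 1.91% of all genes. The 9 log2 fold changes ran from -0.32 to 0.23, with a median of -0.10 against 0.04 over all genes. In RC/- D53 against RC/+ D53, 0 of 9 passed by limma-trend and by edgeR, beside 2.6% of all genes, and 3 had an unadjusted p below 0.05. These were Agtr1a (-0.43 ± 0.15, SE), Ace (-0.39 ± 0.16, SE) and Enpep (-0.20 ± 0.10, SE). Agtr1a had 59.3, 63.5 and 66.8 CPM in RC/+ D53 kidneys, all above the 5 RC/- D53 values given above. It passed by DESeq2 (adjusted p = 0.0368) and when limma-trend was fitted to those 2 groups alone (adjusted p = 0.00836). The D53 groups did not overlap for 3 of the 9, Agtr1a, Enpep and Mme, lower in each case, as for 3.45% of all genes. In the same comparison 6 of 7 macrophage and 3 of 6 collecting duct markers were higher, and their part in these values was not tested.

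The name unedited line stands here for the RC/+ and RC/- groups, whose founder is not given. Whether the cystic difference was unequal between lines was tested as an interaction. Relative to the unedited line it was smaller in the D18 line for 5 of 9 genes, with 17.1% of all genes past the threshold in this contrast (6.31% as higher). These were Ace (1.47 ± 0.23, SE), Enpep (0.90 ± 0.14), Agtr1a (0.80 ± 0.21), Mme (0.78 ± 0.13) and Agt (0.58 ± 0.14), all on the log2 scale. In the D53 line it was 4 of 9, with 11.3% of all genes past the threshold (4.73% as higher), namely Ace (1.25 ± 0.23, SE), Enpep (0.91 ± 0.14), Mme (0.65 ± 0.13) and Agt (0.56 ± 0.14). Ren1 had contrasts as large, 1.16 ± 0.46 and 1.18 ± 0.46 (SE), but did not pass (adjusted p = 0.0885 and 0.102 by limma-trend). Without RC/- replicate 17 both passed, at 1.43 (adjusted p = 0.0189) and 1.45 (adjusted p = 0.0261), and without RC/- D18 replicate 22 the first did, at 1.35 (adjusted p = 0.0421). Agtr1a in the D53 line had 0.60 ± 0.21 (SE; adjusted p = 0.0649 by limma-trend), and it passed at 0.72 without RC/- replicate 16 (adjusted p = 0.0104) and at 0.79 without RC/+ replicate 5 (adjusted p = 0.0170). It also passed with TMM factors, with DESeq2 size factors, by edgeR and by DESeq2, at adjusted p of 0.0212, 0.0252, 0.0236 and 0.00977. Agtr2 likewise passed in both lines only without replicate 16, at 1.98 (adjusted p = 0.0404) and 2.03 (adjusted p = 0.0492), by limma-trend.

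In noncystic kidneys the deletion gave no called difference in these genes. By limma-trend, 0 of 9 passed in RC/+ D18 against RC/+, where 0.00443% of all genes did, and 0 of 9 in RC/+ D53 against RC/+, where 0% did. At an unadjusted p below 0.05 by limma-trend the count was 0 of 9 in both. By edgeR and DESeq2, 0 of 9 passed the adjusted threshold in both. Over all genes 1013 and 525 had an unadjusted p below 0.05. Ren1 had 174, 194 and 214 CPM in RC/+ D18 and 179, 197 and 203 CPM in RC/+ D53 kidneys. The 2 edited cystic groups also had 0 of 9 called between them by limma-trend, edgeR and DESeq2, with 0.266% of all genes past the threshold, and 1 gene, Agt, had an unadjusted p below 0.05.

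Other genes whose products cut or bind angiotensin peptides were followed as lists. Of 10 such peptidases 9 were tested, and 1 fell and 5 rose in RC/- against RC/+ kidneys, with a list median log2 fold change of 0.28. The 1 that fell was Anpep, aminopeptidase N (-0.81 ± 0.16, SE; adjusted p = 0.000229 by limma-trend). It rose again in edited cystic kidneys, by 0.88 ± 0.14 in D18 and 0.78 ± 0.14 in D53 on the log2 scale (SE).

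The 5 that rose were mostly soluble peptidases. They were Rnpep, aminopeptidase B (0.74 ± 0.06, SE), Prcp, a prolylcarboxypeptidase that can cleave angiotensin II (0.65 ± 0.09), Thop1, thimet oligopeptidase (0.50 ± 0.08), Nln, neurolysin (0.31 ± 0.08), and Prep, prolyl endopeptidase (0.28 ± 0.05). In RC/- D18 kidneys these 5 were lower than in RC/-, and in RC/- D53 kidneys 4 were lower and Nln did not pass. With TMM factors, which centre the median of all genes, Prep and Nln lost their call in RC/- against RC/+, Prep lost it in D53 and Nln in D18, with no change of sign. The D53 calls of Prcp, Thop1 and Prep were lost with libraries 20 to 27 as a covariate. Of 4 other receptors and partners 3 were tested and 1 rose in RC/- kidneys, Lnpep (0.37 ± 0.09, SE), an aminopeptidase that binds angiotensin IV.

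Of 5 kallikrein-kinin genes, whose product bradykinin is degraded by ACE, 2 fell and 1 rose. Klk1, tissue kallikrein, fell by 1.90 ± 0.13 on the log2 scale (SE; adjusted p = 6.67e-11 by limma-trend) and Kng2, a kininogen, fell by 1.17 ± 0.15 (SE) in RC/- against RC/+ kidneys. Bdkrb2, the constitutive bradykinin receptor, rose by 1.49 ± 0.21 (SE; adjusted p = 3.81e-06 by limma-trend). All 3 moved the other way in edited cystic kidneys, Klk1 by 1.78 and 1.52 on the log2 scale, and the call of Bdkrb2 in D53 was lost with libraries 20 to 27 as a covariate. Bdkrb2 alone of the 5 still differed in RC/- D53 against RC/+ D53 (1.01 ± 0.21, SE; adjusted p = 0.00568 by limma-trend), a call lost with libraries 20 to 27 as a covariate and without RC/+ D53 replicate 12. Kng1 and Bdkrb1 did not pass in these comparisons by limma-trend. By DESeq2, 4 of the 5 genes passed in RC/- against RC/+ kidneys, beside 34.6% of all genes, so Kng1 or Bdkrb1 passed there.

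**Figure D4:**
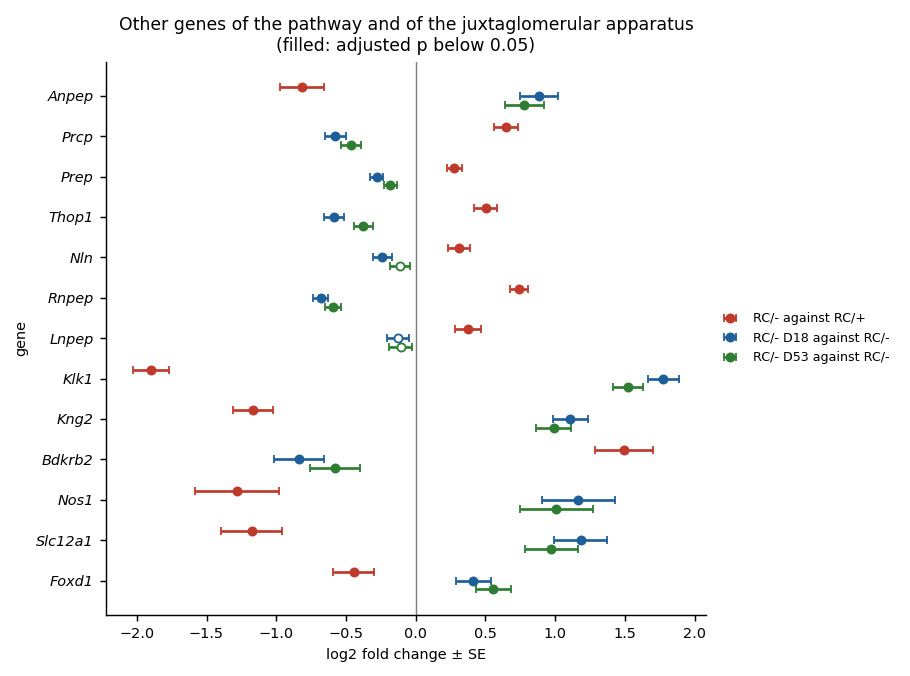
Log2 fold change (horizontal axis) with standard error of other genes of the pathway, the kallikrein-kinin genes Klk1, Kng2 and Bdkrb2, and Nos1, Slc12a1 and Foxd1 of the juxtaglomerular lists. Colours give the same 3 comparisons as for the members, and filled points passed an adjusted p below 0.05. Anpep, Klk1, Kng2, Nos1 and Slc12a1 are lower in RC/- kidneys and higher with the deletion, while Rnpep, Prcp, Thop1 and Bdkrb2 show the opposite order.

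Of 8 genes of renin-producing cells, 2 fell and 1 rose in RC/- against RC/+ kidneys, a share close to the 37.6% of all genes called. Gja4, a connexin, fell by 0.37 ± 0.14 and Foxd1, a transcription factor of the stromal progenitors of these cells, fell by 0.44 ± 0.15 on the log2 scale, and Rbpj, the Notch effector, rose by 0.26 ± 0.09 (SE). The call of Gja4 was lost without RC/+ replicate 4, 5 or 6 or RC/- replicate 15 or 17, and that of Rbpj with TMM factors and without RC/+ replicate 5 or 6 or RC/- replicate 17. That of Foxd1 was lost without RC/+ replicate 4 or RC/- replicate 14. Foxd1 rose by 0.41 ± 0.13 in RC/- D18 and 0.56 ± 0.13 in RC/- D53 kidneys, calls lost when libraries 20 to 27 were left out (D18) or entered as a covariate (D53), and in RC/- D18 Adrb1, the beta-1 adrenergic receptor, rose by 0.50 ± 0.18 while Tbx18 fell by 1.73 ± 0.44 (SE). The call of Adrb1 was lost without RC/- replicate 13, 14 or 17 or RC/- D18 replicate 20, 21 or 22. That call was also lost with libraries 20 to 27 as a covariate, with those libraries left out and with no filter. Gja5 had log2 fold changes of 0.07, -0.03 and -0.07 in the 3 comparisons. The mesangial and vascular smooth muscle sum, 404 to 465 CPM in RC/+ and 581 to 1168 CPM in RC/- kidneys, went the other way from Ren1. Of its 7 genes 4 rose and 1 fell, and the part of these cells in the Ren1 values was not tested.

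Of 4 genes of the macula densa, the tubule cells that signal renin release, 2 fell in RC/- kidneys. Nos1, neuronal nitric oxide synthase, fell by 1.28 ± 0.30 and Slc12a1, the sodium-potassium-chloride cotransporter, by 1.18 ± 0.22 on the log2 scale (SE), with adjusted p of 0.00163 and 0.000145 by limma-trend. Both rose in RC/- D18 (1.17 ± 0.26 and 1.18 ± 0.19, SE) and RC/- D53 kidneys (1.01 ± 0.26 and 0.97 ± 0.19). Slc12a1 is transcribed along the whole thick ascending limb. Ptgs2 and Pappa2 had log2 fold changes of 0.40 ± 0.36 and -0.42 ± 0.37 (SE) in the cystic comparison and did not pass.

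Pappa2, a metalloprotease that cleaves IGF-binding proteins, was the gene whose library-to-library pattern was most like that of Ren1. The measure was Pearson's r of log2 CPM after subtraction of group means over 24 libraries, among 15594 genes with a mean of at least 20 counts. It was 0.84 for Pappa2, followed by Rrp15 (0.82), Ppib (0.80), Anxa13 (0.79) and Prpf19 (0.75). Pappa2 had only 14 to 76 counts per library. Its highest levels were in RC/- D53 replicate 27 (2.74 CPM) and RC/- D18 replicate 19 (2.64 CPM), the libraries with the most Ren1, and its lowest was in RC/- replicate 16 (0.588 CPM). Without replicate 16 the r for Pappa2 was also 0.84. These values are a description, since the points share depth and composition of their libraries and the genes were chosen as the extreme of many.

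**Figure D5:**
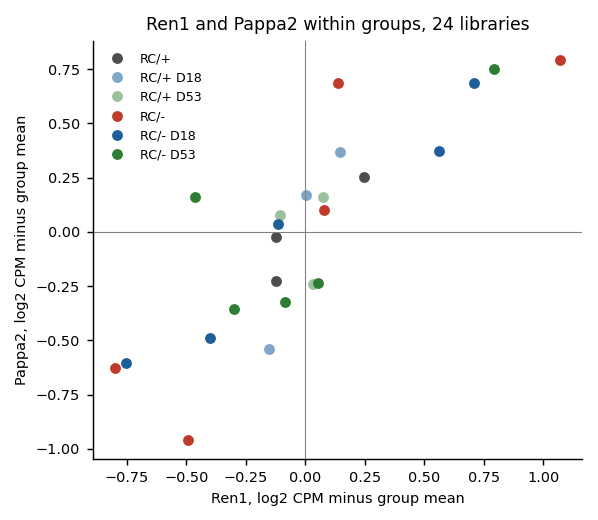
Pappa2 (vertical axis) against Ren1 (horizontal axis), each as log2 CPM minus the mean of its group, in 24 libraries coloured by group. Libraries high in Ren1 for their group tend to be high in Pappa2 (r = 0.84), with RC/- replicate 17 at the upper right, 1.07 above its group mean for Ren1.

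By the same measure the genes most like Ace were Abhd14b (0.93), Gcm1 (0.87) and Fut9 (0.87), and those most like Mme were Gabpb2 (0.92), Pggt1b (0.87) and Trim2 (0.86). For Agt they were BC024386 (0.85), Acy1 (0.83) and Kif12 (0.83), and for Enpep Zfp213 (0.84), Gm16010 (0.84) and Gm26685 (0.81), of which Gm16010 dropped to 0.44 without replicate 16. Agtr1a was most like Cacna2d1 (0.85), Gabra3 (0.85) and Acvrl1 (0.83), which without replicate 16 had 0.75, 0.81 and 0.87. Agtr2 was most like Kcna5, Scn7a and Mbnl1 (0.84, 0.84 and 0.82), and Atp6ap2 most like Tpd52, F11r and 2310011J03Rik (0.84, 0.83 and 0.81). Agtr1b had too few counts for this measure.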

How the data were processed

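RNA-seq of 24 whole kidneys was analysed, 1 library per mouse, grouped by the genotype in the labels. The deposited values are raw read counts per gene, which the authors made by trimming with Trim Galore 0.6.3 and aligning to GRCm38 with STAR 2.5.3a, without normalization. The strand setting is not stated. All columns were used (0 unused). The 39 pairs of libraries within groups differed by a chi-square per degree of freedom of 8.45 or more, so none were copies.

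Counts were scaled by library totals to CPM and tested with limma-trend (R 4.3.3, limma 3.58.1, prior count 2, 1 mean per group, no covariate, mean log2 CPM of at least -3, Benjamini-Hochberg, two-sided). Limma-trend, scaling by library totals and the expression limit follow the study's methods, and the other settings were chosen here. The fit was tested on simulated data. Library totals put the median gene at 0.14 on the log2 scale in RC/- against RC/+, and TMM factors put it at 0.01. The calls were 5753 higher and 2744 lower with totals, and 3844 and 3896 with TMM. For D18 against RC/- they were 3238 and 6067, then 4443 and 4400, and for D53 against RC/- 2543 and 4262, then 3378 and 2966. For the D18 interaction they were 1424 and 2434, then 1881 and 1770, and for the D53 interaction 1067 and 1478, then 1470 and 973. Alternatives were TMM and DESeq2 size factors, edgeR 4.0.16, DESeq2 1.42.0, other filters, prior count and covariates, and leaving out each library.

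Exon lengths and positions came from GENCODE M21 (GRCm38), which held 54495 of the 54532 gene identifiers. Named genes were the 9 members, the other pathway genes called in RC/- against RC/+, the renin cell and macula densa genes called in any comparison of groups, and the nearest genes by correlation. Gja5, Kng1, Bdkrb1, Ptgs2 and the adrenal genes are named outside that rule. One gene of the peptidase list is not reported here and was left out of its counts. The members and lists were chosen with earlier results of these data known. Whether mice of a group were littermates is not given, so p-values measure the spread between these mice.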

Additional observations from a re-analysis of the deposited data

Results flagged for a closer look

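Each of the 9 genes was examined for a single library far from the others in the 3 groups of 5 mice, 27 groups in all. One library stood apart, RC/- replicate 16 for Agtr1a, whose gap to the next library was 0.739 of the range of its group, against a critical value of 0.71. Chance alone picks out about 1 group in 20. The same library had the adrenal transcripts described above and the highest Agtr1b and Agtr2 of the series, and the part of those transcripts in its Agtr1a value was not tested.

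The cystic difference was unequal between the D18 and the unedited line for Agt (0.58), Ace (1.47), Agtr1a (0.80), Enpep (0.90) and Mme (0.78), and in the same contrast for the D53 line for Agt (0.56), Ace (1.25), Enpep (0.91) and Mme (0.65), on the log2 scale. These were picked out by the interaction test in limma-trend, and each difference was positive, so the fall seen in RC/- kidneys was smaller in the edited line. Both contrasts share the unedited libraries.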

How the results depend on the processing

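No paired analysis was possible because the replicate numbers, 4 to 27, are all different and pair no mice across groups. The number of the 9 genes called was 6 to 8 in RC/- against RC/+ and in each edited against the unedited cystic group over the alternatives run. The share of all genes called ran from 13.2% to 52.2% in RC/- against RC/+ and from 14.7% to 56.0% in D18 against RC/-. In D53 against RC/- it ran from 7.96%, with libraries 20 to 27 as a covariate, to 42.3%. The number of the 9 called was 5 or 6 in the D18 interaction and 3 to 6 in the D53 interaction. With the settings chosen, 17.1% and 11.3% of all genes passed in these. Within the D53 line 1 of the 9 (Agtr1a) passed by DESeq2 and with only its 2 groups fitted, beside 3.23% and 3.48% of all genes, and 0 otherwise. Agtr2 and Atp6ap2 lost their call in RC/- against RC/+ with only those 2 groups fitted (adjusted p = 0.0868 and 0.105 by limma-trend). Agtr2 also lost it with no filter (adjusted p = 0.0721). In the D53 interaction Ace and Mme lost theirs with libraries 20 to 27 as a covariate (adjusted p = 0.0636 and 0.0554) at similar log2 values (1.08 and 0.65), where Ren1 passed at 2.24. Atp6ap2 passed in the D18 interaction with TMM factors (0.31). Leaving out libraries 20 to 27, chosen after seeing the data, raised Ren1 in the D18 interaction to 1.80 (adjusted p = 0.0155). The cause of these shifts was not tested.

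The number of genes that fell more than the proximal tubule median was 2, and 1 by edgeR and by DESeq2, with a range of 1 to 4 when single libraries were left out (1 without RC/- replicate 14, 4 without RC/- replicate 16). The number above 1 RPKM was 7 with either length. Signs were followed for the 9 genes, and not for Gja5 and other list genes that were not called. Among the 9, the only reported fold changes that changed sign were those of Agtr1b. In RC/- against RC/+ it was 0.39 by edgeR and 0.41 by DESeq2, and from -0.53 to 0.32 when single libraries were left out. In D18 against RC/- it was 0.14 with libraries 20 to 27 as a covariate, 0.13 without them and from -0.55 to 0.30 when single libraries were left out. In D53 against RC/- it was 0.0023 with a prior count of 0.5 and 0.46 with the covariate, and from -0.45 to 0.40 when single libraries were left out. Of 42 further fold changes that are not reported one by one, 58 of 772 recomputed values changed sign and 0 passed the threshold. Counts of 0 to 58 per library limit what can be said of Agtr1b and Agtr2.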
